A study of Saccharomyces cerevisiae with 21 samples.

Results

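The comparison set yeast cells lacking PHO84, which encodes the main high-affinity carrier of phosphate, against their parent BY4741. It used the 2 pho84Δ libraries and the 2 BY4741 libraries numbered 4 and 5, which is 4 of the 21 libraries sequenced in 2 series, and all genes of the deposited table were described. BY4741 is a haploid MATa laboratory strain of Saccharomyces cerevisiae that carries deletions in HIS3, LEU2, MET17 and URA3. Cultures of all strains were kept at 30 °C in YNB medium made without phosphate, to which 7.2 mM potassium phosphate, 50 mM KCl, leucine, histidine, methionine and uracil had been added, and they were frozen at an A620 of 0.5. The medium was therefore rich in phosphate in both groups, and the deletion is the difference that the labels give. The 2 or 3 cultures of a strain were inoculated from the same overnight culture, so the p-values below cover the variation of parallel cultures and say nothing of independently made strains. The placing of BY4741 4 and 5 in the second series follows from their numbers and the design text. No label says how PHO84 was removed or how many clones were used. A further 2 libraries of pho4Δ from the same series, which lack the phosphate-responsive transcription factor Pho4, and 3 libraries of the strain labelled Tpho84-Tcyc1 with 3 BY4741 libraries from the first series served as points of reference. What the Tpho84-Tcyc1 label alters is not explained in the labels, and no meaning was assumed. The same holds for the strains BY4741ΔP and BY4741ΔU, written ΔP and ΔU below, with 3 libraries each. The strain ume6Δ, with 3 libraries, lacks UME6, a repressor gene of early meiotic genes. ΔU and ume6Δ belong to the 12 libraries of the second series that were fitted together and so help to set the variances, ΔP enters the fit of all 21 libraries, and levels in the 3 strains are given where they serve as a range.

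Yeast takes up inorganic phosphate through the high-affinity carriers Pho84, a proton symporter, and Pho89, a sodium symporter, and through the low-affinity carriers Pho87 and Pho90. When phosphate runs short, the kinase complex of Pho80 and Pho85 is inhibited by Pho81, and the factor Pho4 enters the nucleus and activates the PHO regulon, which holds secreted acid phosphatases, transporters and enzymes of polyphosphate metabolism. In a phosphate-rich medium most of these genes are kept low. The comparison asks which RNAs differ when the main transporter gene is missing although phosphate is plentiful.

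Levels are given in RPM, the reads of a gene per Mread (megaread) counted in a library. The 4 libraries held 15.5 and 16.1 Mreads (BY4741 4 and 5) and 13.9 and 25.9 Mreads (pho84Δ 1 and 2). Differences are log2 differences of RPM + 1 from limma over all 12 libraries of the second series, with 1 mean per group, and a gene was called at a Benjamini-Hochberg adjusted p under 0.05. The a-cell marker genes STE2, STE6, BAR1, MFA1, MFA2 and AGA2 were present in all 4 libraries. Of the alpha-cell genes, STE3 stayed at or below 1.43 RPM and SAG1 stood at 24.8 to 36.7 RPM. URA3, LEU2 and MET17 had 0 reads in all 4 libraries, and HIS3, deleted only in part in this strain, stood at 95.3 to 141 RPM.

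PHO84 itself, on chromosome XIII (chrXIII:24037-25800 in build R64), stood at 136 and 130 RPM in BY4741, or 2103 and 2096 reads. In pho84Δ it had 2 reads in each library, 0.143 and 0.0771 RPM, which is below the level that 3 reads would give (0.215 and 0.116 RPM). It was called lower (adjusted p = 0.00014 in limma), and no fold is given because both deletion libraries were under 3 reads. The genes beside it did not pass the test. TUB3, an alpha-tubulin gene on one side, stood at 193 and 192 RPM in BY4741 and at 202 and 203 RPM in pho84Δ (log2 difference 0.07, adjusted p = 0.693 in limma). GTR1, on the other side, encodes a GTPase of nutrient signalling and stood at 65.9 and 63.2 RPM against 66.7 and 66.1 RPM (0.04, adjusted p = 0.866 in limma). YML122C, a reading frame between PHO84 and GTR1, was below 1 RPM in all 4 libraries and was not tested.

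Sequences around the recognition letters of Pho4 are shown for the regulon genes that the results turn on, so that the promoters can be read beside the levels. They come from the RefSeq genome of build R64 and are written on the coding strand of each gene. The capitals mark CACGTG, the stronger core that Pho4 binds, or CACGTT, the weaker one. The PHO5 stretch lies at chrII:431184-431328 and begins upstream of the weaker core, 362 bases before the start codon, and ends beyond the stronger core, 253 bases before it.
PHO5: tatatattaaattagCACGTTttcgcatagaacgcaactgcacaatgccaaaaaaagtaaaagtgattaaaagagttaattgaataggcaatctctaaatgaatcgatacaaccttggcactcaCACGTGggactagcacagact
PHO89 (chrII:798823-798862): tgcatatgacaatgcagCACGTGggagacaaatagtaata
PHM6 (chrIV:1022578-1022617): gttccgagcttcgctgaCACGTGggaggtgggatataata
PHO11 (chrI:225160-225199): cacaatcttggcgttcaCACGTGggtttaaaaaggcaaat
PHO12 (chrVIII:551799-551838): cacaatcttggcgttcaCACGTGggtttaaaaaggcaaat
PHO84 (chrXIII:26192-26231): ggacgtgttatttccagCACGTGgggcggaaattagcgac
SPL2 (chrVIII:375439-375478): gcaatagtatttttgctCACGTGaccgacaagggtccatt
The stretches of PHO11 and PHO12 carry the same letters, as do large parts of these paralogous genes. Both strands of the 500 bases before each start codon were searched. CACGTG was in 16 of the 21 regulon promoters (76.2%) and in 374 of all 6000 complete protein-coding promoters of that length (6.23%). CACGTT or its reverse complement AACGTG was in 13 of the 21 (61.9%) and in 961 of 6000 (16.0%). PHO5, PHO89, PHM6, PHO11 and PHO12 each held 1 match of either kind, PHO84 held 2 of CACGTG and 1 of the other, and SPL2 held 4 of CACGTG within that window. GIT1 held no match of either kind in its window. The regulon list was chosen as known or likely Pho4 targets, so these shares describe the list and are no result of the libraries.

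Of 5840 features tested, 17 were called, 16 higher in pho84Δ (0.274% of those tested) and 1 lower (0.0171%), the latter being PHO84. At an unadjusted p under 0.05 there were 392 higher and 294 lower. The median difference over all features was 0.02. The count was 171 without BY4741 library 4, 132 higher and 39 lower, and it was 11 without pho84Δ library 2. With edgeR on the recovered reads it was 14 and with DESeq2 it was 40. The 4 deletion and parent libraries did not overlap for 27.2% of tested features on the higher side and for 18.0% on the lower side, so that separation of 2 values from 2 values was common.

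**Figure D1:**
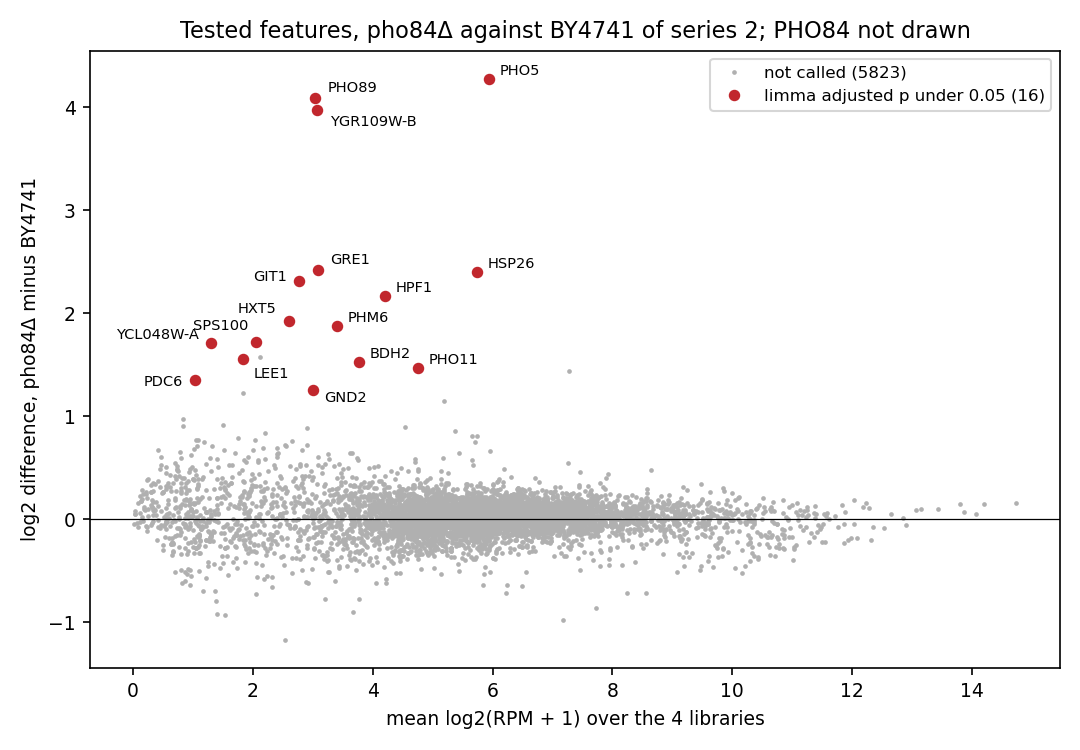
Log2 difference between pho84Δ and BY4741 of series 2 for each tested feature except PHO84, against the mean log2(RPM + 1) over the 4 libraries. Red points are the 16 features called higher at a limma adjusted p under 0.05, grey points the features that were not called, which lie in a band around 0.

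The PHO regulon held the largest differences. Of its 21 listed members, all tested, 5 rose, PHO84 was lower, and 15 did not pass. The median over the 21 was 0.10 against 0.02 over all features, so that the list split into a few genes far above BY4741 and many close to it. Groups did not overlap on the higher side for 9 members, against 27.2% of all features, and on the lower side for 4, against 18.0%, and nothing is read from these counts.

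Acid phosphatases are secreted enzymes that free phosphate from organic sources outside the cell. PHO5, the main one (YBR093C, chrII:429548-430951 in R64), stood at 14.7 and 11.3 RPM in BY4741 and at 276 and 261 RPM in pho84Δ. Both deletion libraries were far above both parent libraries, and the ratio of the means, 13.0 ± 2.42 to 269 ± 10.4 RPM (SD, n = 2), was 20.6. The log2 difference was 4.28 (SE 0.19, adjusted p = 1.51e-08 in limma). In the other 19 libraries of the study PHO5 ran from 10.0 to 35.3 RPM, the highest being a ΔP library, so that both pho84Δ libraries stood above every other library sequenced. In such bulk RNA, more RNA per cell and a larger share of cells that hold it cannot be told apart. PHO5 was called in all 14 alternatives, with differences from 3.91 to 4.45.

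PHO11, a PHO5 paralog, stood at 15.1 and 15.3 RPM in BY4741 and at 41.5 and 46.4 RPM in pho84Δ. It rose by 1.47 (SE 0.22, adjusted p = 0.0055 in limma), and both deletion libraries were above the highest of the other 19 libraries, 23.5 RPM. The call of PHO11 ended without pho84Δ library 2 (adjusted p = 0.102). Its near-identical copy PHO12 stood at 45.2 and 34.3 RPM against 69.7 and 69.6 RPM. The groups did not overlap, but the difference of 0.81 (SE 0.30) did not pass (adjusted p = 0.329 in limma). Reads shared by PHO11 and PHO12 may have been split or dropped in counting, so the division between these paralogs is uncertain. PHO8, the vacuolar alkaline phosphatase gene, stood at 71.0 and 87.9 RPM against 81.5 and 83.9 RPM, with overlapping groups (0.06, adjusted p = 0.883 in limma). PHM8, a gene of an intracellular nucleotide phosphatase, stood at 36.7 and 31.4 RPM in BY4741 and at 57.1 and 49.8 RPM in pho84Δ. The groups of PHM8 were separate, and its difference of 0.64 missed the threshold (SE 0.13, adjusted p = 0.0784 in limma), though it passed with DESeq2 (adjusted p = 0.000786) and without BY4741 library 4 (adjusted p = 0.0275).

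Among transporters, PHO89 (YBR296C, chrII:796798-798522) encodes the sodium-coupled phosphate carrier. It stood at 1.03 and 0.933 RPM in BY4741, or 16 and 15 reads, and at 31.8 and 33.6 RPM in pho84Δ, or 443 and 872 reads. PHO89 was thus close to silent in the parent and clearly present in both deletion libraries, with a ratio of mean RPM of 33.2. Its log2 difference of RPM + 1 was 4.09 (SE 0.32, adjusted p = 1.13e-05 in limma), which understates the change of a gene near 1 RPM. The highest of the other 19 libraries held 7.47 RPM of PHO89. GIT1 encodes the carrier of glycerophosphoinositol and glycerophosphocholine, which are organic phosphate sources. It stood at 2.00 and 2.11 RPM in BY4741 and at 16.5 and 12.2 RPM in pho84Δ, and rose by 2.31 (SE 0.19, adjusted p = 1.17e-05 in limma). No other library of the study held more than 5.92 RPM of GIT1.

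Levels per kilobase of coding length allow the carriers to be set beside each other. PHO84 stood at 75.5 ± 2.25 RPM per kb in BY4741 (SD, n = 2) and was the highest of the 6 carrier genes compared there. In pho84Δ PHO89 reached 19.0 ± 0.756 RPM per kb, from 0.570 ± 0.0417 in BY4741, and so stayed below the level that PHO84 had in the parent. The low-affinity carrier genes lay above it in the deletion strain. PHO87 stood at 22.3 RPM per kb in BY4741 and at 25.2 in pho84Δ, and PHO90 at 32.4 and 35.1. PHO91, the vacuolar phosphate exporter gene, stood at 35.5 and 39.3 RPM per kb. None of these 3 passed the test, with log2 differences of RPM + 1 of 0.17, 0.12 and 0.15 (adjusted p = 0.488, 0.582 and 0.45 in limma). GIT1 reached 9.21 RPM per kb.

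SPL2 encodes a small protein that lowers phosphate uptake by the low-affinity carriers. It is a known Pho4 target, and here it did not pass the test. SPL2 stood at 10.3 and 7.03 RPM in BY4741 and at 6.96 and 6.44 RPM in pho84Δ. Both deletion libraries lay just below the lower parent library (log2 difference -0.31, SE 0.23, adjusted p = 0.618 in limma). In pho4Δ it stood at 0.606 and 1.04 RPM, far below both groups.

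PHM6, a PHO-regulated gene of unknown molecular role, stood at 4.85 and 4.23 RPM in BY4741 and at 19.5 and 19.0 RPM in pho84Δ. It rose by 1.87 (SE 0.18, adjusted p = 5.85e-05 in limma), and the highest of the other 19 libraries, from ΔP, held 13.1 RPM. PHM7, a membrane protein gene, stood at 4.33 and 5.28 RPM against 9.54 and 7.67 RPM. The groups of PHM7 were separate but the difference of 0.72 did not pass (adjusted p = 0.217 in limma), and 14 of the other 19 libraries were above the lower deletion library.

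The genes of the vacuolar transporter chaperone, the complex that makes polyphosphate, stayed close to BY4741. VTC1, VTC2 and VTC4 differed by 0.02, 0.03 and -0.06 (adjusted p = 0.934, 0.921 and 0.879 in limma). VTC3 stood at 182 and 164 RPM in BY4741 and at 147 and 135 RPM in pho84Δ, and its difference of -0.29 did not pass (adjusted p = 0.511 in limma). The remaining regulon members lay between -0.05 and 0.17 and did not pass: PPN1, a polyphosphatase gene, PHO81, the inhibitor of the Pho80 and Pho85 kinase, PHO86, which helps Pho84 leave the endoplasmic reticulum, GPP2, a glycerol phosphatase gene, GDE1, a glycerophosphocholine phosphodiesterase gene, and CTF19, which shares a divergent promoter with VTC3. PHO81 stood at 56.6 and 49.1 RPM against 57.4 and 55.4 RPM. Thus the regulon genes that rose were PHO5, PHO11, PHO89, GIT1 and PHM6, while genes of the same list such as VTC1, VTC4 and PHO81 did not pass.

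**Figure D2:**
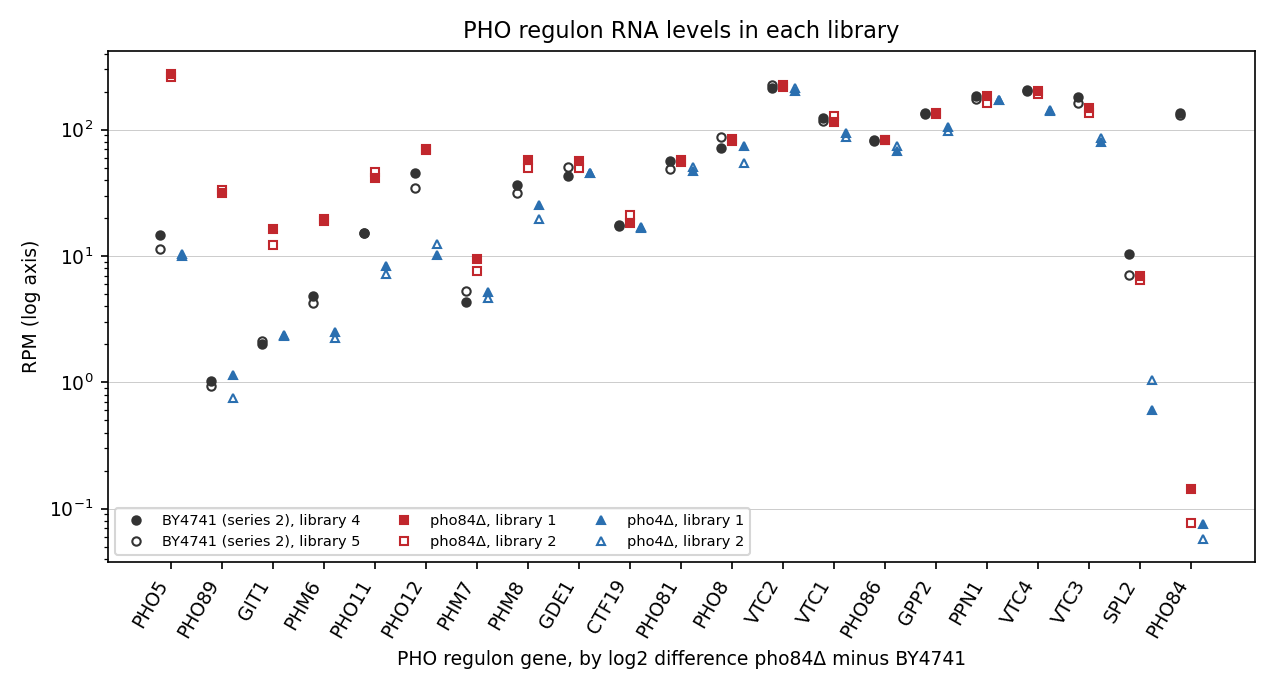
Level in RPM (log axis) of each PHO regulon gene in each library of BY4741 (series 2), pho84Δ and pho4Δ, ordered by the log2 difference between pho84Δ and BY4741. Filled and open symbols are the 2 libraries of a group. PHO5, PHO89, GIT1, PHM6 and PHO11, which were called higher against BY4741, lie above both other strains in pho84Δ. So do some genes that were not called against BY4741, such as PHO12, PHM8 and PHM7. SPL2 lies close to BY4741 in pho84Δ and far lower in pho4Δ.

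The genes that carry the phosphate signal were not called. Of 15 listed genes of PHO signalling and inositol pyrophosphate metabolism, 0 passed in limma, with a median difference of 0.05, and 0 had an unadjusted p under 0.05. With edgeR and DESeq2 0 passed as well. PHO4 stood at 81.5 and 74.98 RPM in BY4741 and at 75.02 and 84.7 RPM in pho84Δ, so the groups overlapped (0.03, adjusted p = 0.951 in limma). KCS1, an inositol hexakisphosphate kinase gene, stood at 127 and 123 RPM against 139 and 140 RPM (0.16, adjusted p = 0.44 in limma). UME6, a gene of a repressor of meiotic genes, stood at 69.3 and 53.5 RPM against 70.9 and 73.7 RPM (0.24, adjusted p = 0.553 in limma). Of 13 genes of constitutive phosphate transport and export, 0 passed in limma, edgeR or DESeq2. At an unadjusted p under 0.05, 2 of the 13 were higher, against 392 of all 5840 features. The largest difference there was that of MIR1, the mitochondrial phosphate carrier gene, at 227 and 198 RPM against 266 and 253 RPM (0.29, adjusted p = 0.244 in limma).

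Outside the regulon, stress and carbohydrate genes were among those called. HSP26 encodes a small heat-shock chaperone. It stood at 23.7 and 21.1 RPM in BY4741 and at 134 and 112 RPM in pho84Δ, above all other 19 libraries, whose highest value was 90.5 RPM. It rose by 2.40 (SE 0.20, adjusted p = 1.17e-05 in limma). GRE1, a hydrophilin gene induced by osmotic and oxidative stress, rose from 2.84 and 2.49 RPM to 17.9 and 19.2 RPM (2.42, SE 0.23, adjusted p = 4.94e-05 in limma), also above the other 19 libraries. These were the 2 called members of 35 in the list of stress, trehalose and glycogen genes. A further 9 members were higher and 1 lower at an unadjusted p under 0.05, and the list median was 0.11. Over all 5840 features 16 were called higher and the median was 0.02. At an unadjusted p under 0.05, 392 of all features were higher and 294 lower. Other well-known members did not pass. DDR2 stood at 20.9 and 12.2 RPM against 32.1 and 29.0 RPM (0.89, adjusted p = 0.266 in limma), and CTT1, the cytosolic catalase gene, at 20.04 and 21.3 RPM against 33.2 and 28.4 RPM (0.55, adjusted p = 0.259 in limma). The trehalose genes TPS1 and TSL1 differed by -0.03 and 0.00 (adjusted p = 0.92 and 0.999 in limma), and the disaggregase gene HSP104 by 0.07 (adjusted p = 0.857 in limma).

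HXT5, a hexose transporter gene typical of slowly growing cells, rose from 2.59 and 1.68 RPM to 11.5 and 10.1 RPM (1.92, SE 0.30, adjusted p = 0.00747 in limma). It was the 1 called member of 15 tested hexose transport genes, whose median difference was 0.16. Over all 5840 features 16 were called higher (0.274%) and the median was 0.02. The call of HXT5 was lost without pho84Δ library 1, without pho84Δ library 2 and without BY4741 library 5, with adjusted p up to 0.168. PDC6, a minor pyruvate decarboxylase gene, had 6 and 3 reads in BY4741 and 28 and 67 in pho84Δ, or 0.388 and 0.187 against 2.01 and 2.58 RPM. It was the 1 called member of 25 glycolysis and fermentation genes (1.36, SE 0.21, adjusted p = 0.00613 in limma), and its call was lost in 7 of 14 alternatives. Of the other 19 libraries, 7 were above the lower deletion library for PDC6 and 1 for HXT5. The highest held 10.4 RPM of PDC6 (ume6Δ) and 11.7 RPM of HXT5 (ΔU). TDH1, a glyceraldehyde-phosphate dehydrogenase gene of the glycolysis and fermentation list, stood at 134 and 65.2 RPM against 288 and 226 RPM. The TDH1 groups were separate, but the parent libraries differed among themselves, and the difference of 1.44 did not pass (SE 0.39, adjusted p = 0.217 in limma).

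BDH2, a butanediol dehydrogenase homologue, rose from 8.14 and 6.09 RPM to 22.8 and 21.4 RPM (1.52, SE 0.19, adjusted p = 0.000747 in limma) and was called in all 14 alternatives, although 6 of the other 19 libraries were above the lower deletion library. GND2, a minor 6-phosphogluconate dehydrogenase gene of the pentose phosphate pathway, rose from 2.97 and 5.84 RPM to 11.8 and 11.1 RPM (1.26, SE 0.23, adjusted p = 0.0261 in limma), and its call was lost in 6 of 14 alternatives. TKL2, the minor transketolase gene of the same pathway, stood at 2.00 and 1.12 RPM against 7.32 and 5.74 RPM and lay just outside the threshold (1.57, adjusted p = 0.0515 in limma, and 7.37e-05 in DESeq2). HPF1, a gene of a secreted cell wall mannoprotein, rose from 11.1 and 5.28 RPM to 44.7 and 32.4 RPM (2.17, SE 0.25, adjusted p = 0.000372 in limma). The call of HPF1 was lost when only the 4 libraries entered the fit (adjusted p = 0.0689). In ume6Δ HPF1 stood at 74.6, 90.2 and 77.6 RPM and GND2 at 12.8, 18.3 and 15.4 RPM, above both pho84Δ libraries.

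A further 3 low genes were called and are named after their values were seen. YCL048W-A, a small reading frame, had 3 and 9 reads in BY4741 and 61 and 70 in pho84Δ (1.71, adjusted p = 0.00747 in limma). SPS100, a spore wall gene, stood at 2.13 and 0.684 RPM against 6.45 and 6.67 RPM (1.72, adjusted p = 0.0258 in limma). LEE1, a zinc-finger protein gene, stood at 1.87 and 0.497 RPM against 5.95 and 4.36 RPM (1.56, adjusted p = 0.0143 in limma). Without single libraries or in other fits these calls were lost in 2, 6 and 5 of 14 alternatives, in that order.

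The remaining called feature was YGR109W-B, a reading frame of the retrotransposon Ty3. It stood at 2.59 and 0.249 RPM in BY4741 and at 30.6 and 34.2 RPM in pho84Δ (3.98, SE 0.33, adjusted p = 1.17e-05 in limma). The same feature stood at 30.1 and 31.4 RPM in pho4Δ and at 39.8, 38.4 and 43.2 RPM in ume6Δ, and at 0.0605 to 0.574 RPM in the other 12 libraries beside the 2 BY4741 of the second series. It was thus high in pho84Δ, pho4Δ and ume6Δ and low in BY4741, ΔP, ΔU and Tpho84-Tcyc1. Copies of Ty3 share sequence, so its reads cannot be assigned to this copy with certainty, and whether the strains differ in Ty3 copies or in their transcription cannot be told apart.

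No decrease other than that of PHO84 was called in limma or edgeR. DESeq2 called further falls, among them YIR042C (-1.44), COX17 (-0.87), TSC3 (-0.67) and GSY1 (-0.54). Genes of cytosolic ribosomal proteins were slightly lower as a list. The list was drawn by gene names and also took in RPP1 (0.21), which encodes a ribonuclease P subunit and no ribosomal protein. Of its 139 genes, 0 were called in limma, edgeR or DESeq2. At an unadjusted p under 0.05, 57 were lower and 0 higher, against 294 lower and 392 higher of all 5840 features. Groups did not overlap on the lower side for 106 of the 139, against 18.0% of all features, and the median was -0.20 against 0.02 over all features. The summed share of RPM taken by these genes was 21.8% and 22.01% in BY4741 and 19.4% and 19.7% in pho84Δ, so the groups were separate. In pho4Δ it was 21.4% and 20.96%, and over the other strains it ran from 16.3% in a ΔU library to 27.5% in a ΔP library.

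Short genes outside that list were lower as well. For coding lengths, counted without introns, of up to 300 nucleotides the median difference of 202 genes not encoding ribosomal proteins was -0.14. The median of successively longer classes was -0.10 (301 to 500 nucleotides), -0.02, 0.03 and 0.06, and it was 0.08 for 819 genes of 2501 nucleotides and more. In pho4Δ, set against the same BY4741 libraries, the medians of all genes also ran from -0.09 in the shortest class to 0.05 in the longest. Within the length classes the ribosomal protein genes lay lower in pho84Δ, at -0.46 for 19 genes of up to 300 nucleotides, -0.24 for 67 genes of 301 to 500 and -0.08 for 50 genes of 501 to 1000. Both examples that follow have short coding parts, and their parent libraries stood apart from each other. RPL41B stood at 164 and 248 RPM in BY4741, at 106 and 98.0 RPM in pho84Δ and at 174 and 98.4 RPM in pho4Δ (-0.98, adjusted p = 0.259 in limma). RPL43A stood at 384 and 614 RPM against 299 and 292 RPM (-0.72, adjusted p = 0.306 in limma). The part of coding length in the lower level of the ribosomal protein genes was not tested.

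**Figure D3:**
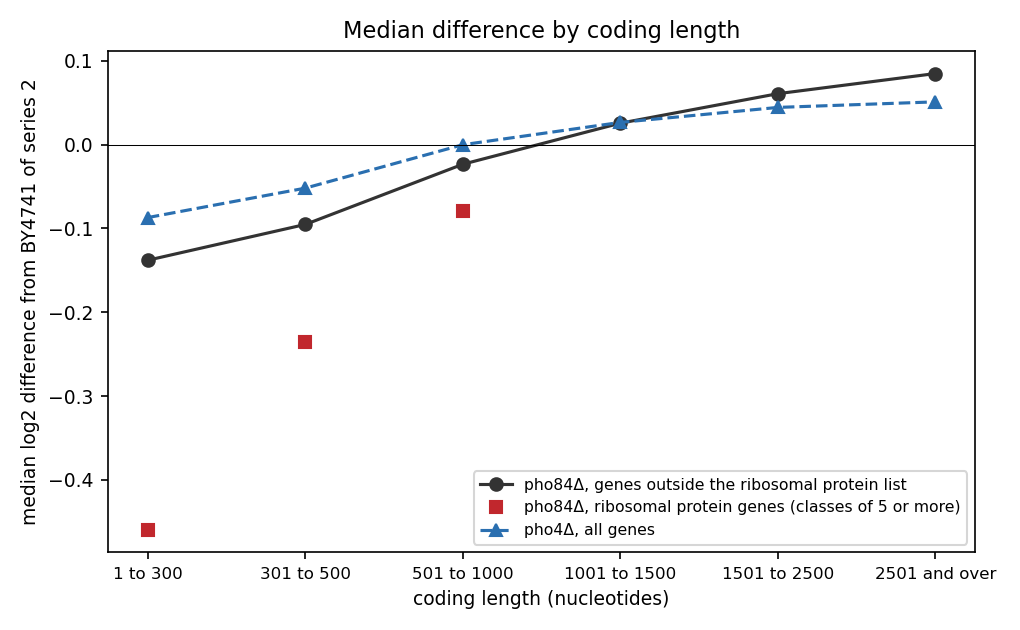
Median log2 difference from BY4741 of series 2 by class of coding length, for genes outside the ribosomal protein list (circles) and ribosomal protein genes (squares, classes of 5 or more genes) in pho84Δ, and for all genes in pho4Δ (triangles). Medians outside the list run from -0.14 in the shortest class to 0.08 in the longest, the squares lie lower in each class drawn, and the triangles run from -0.09 to 0.05.

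The other 17 gene lists held 0 called members in limma and in edgeR, and DESeq2 called CYT1, a cytochrome gene of the respiratory chain (0.39), MEP2, an ammonium carrier gene (0.50), and SIP18, a hydrophilin gene of glucose-repressed metabolism and stress (2.38). The limma differences of these 3 were 0.40, 0.53 and 0.97 (adjusted p = 0.169, 0.169 and 0.146). SIP18 was a low gene, with 7 and 2 reads in BY4741 and 21 and 39 in pho84Δ. List medians in limma lay between -0.05 (amino acid synthesis under Gcn4, 44 genes) and 0.15 (drug efflux and membrane stress, 20 genes). In the latter list the groups did not overlap on the higher side for 16 of 20 genes, against 27.2% of all features. At an unadjusted p under 0.05, 5 of the 20 were higher, against 392 of all 5840 features. PMA1, the plasma membrane proton pump gene in the list of proton, potassium and sodium balance, stood at 4586 and 4493 RPM against 5282 and 4874 RPM (0.16, adjusted p = 0.466 in limma). ZRT1, the high-affinity zinc transporter gene of the zinc regulon, stood at 25.9 and 24.4 RPM against 31.5 and 34.6 RPM (0.38, adjusted p = 0.491 in limma). The manganese carrier gene SMF1 stood at 34.3 and 35.0 RPM against 32.6 and 33.9 RPM (-0.06, adjusted p = 0.855 in limma).

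**Figure D4:**
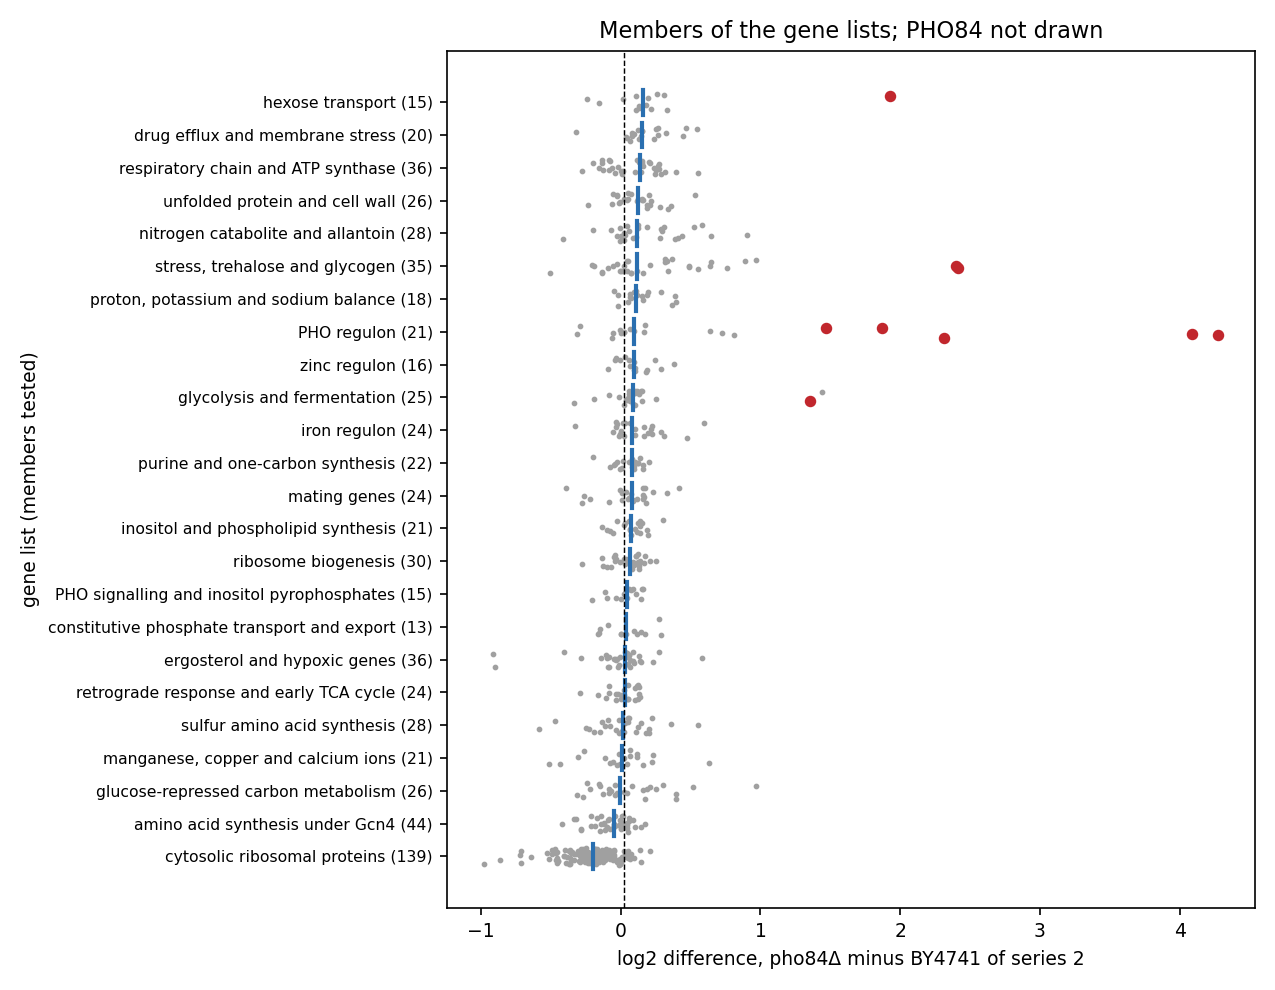
Log2 difference between pho84Δ and BY4741 of series 2 for each tested member of 24 gene lists, with PHO84 left out. Red points were called in limma, blue bars are list medians and the dashed line is the median of all features, 0.02. Called members stand in 4 lists, and the ribosomal protein list has the lowest median, -0.20.

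Against pho4Δ, the other strain of the series in which PHO84 was nearly without reads (1 read in each library), 29 features were called in the same fit, 28 higher in pho84Δ (0.479%) and 1 lower (0.0171%). PHO4, the gene that pho4Δ lacks, is among the 28, with 1 and 2 reads in pho4Δ, so its call was set by the choice of strain. At an unadjusted p under 0.05 there were 232 higher and 157 lower. The count was 18 without pho84Δ library 1 and 18 without pho4Δ library 2, 63 with DESeq2 and 60 with only the 4 libraries in the fit. This comparison uses the same pho84Δ libraries as that with BY4741, so the values are given beside each other and their likeness is not a separate result. Of the 21 regulon members 8 were higher in pho84Δ, with a list median of 0.47 against 0.00 over all features.

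PHO5 stood at 10.00 and 10.5 RPM in pho4Δ, and the difference between the deletion strains was 4.59 (adjusted p = 2.9e-09 in limma). PHO89 stood at 1.14 and 0.751 RPM there (4.12, adjusted p = 4.04e-06 in limma). For both genes pho4Δ lay at or just below the level of BY4741. For SPL2, PHO12 and PHM8, which were not called against BY4741, pho4Δ lay below BY4741. SPL2 was higher in pho84Δ than in pho4Δ by 2.09 (SE 0.23, adjusted p = 0.000199 in limma). PHO12, at 10.1 and 12.5 RPM in pho4Δ, was higher by 2.52 (SE 0.30, adjusted p = 0.000362 in limma), and PHM8, at 25.4 and 19.8 RPM, by 1.21 (SE 0.13, adjusted p = 0.000164 in limma). VTC3, at 79.4 and 85.3 RPM in pho4Δ, lay near the threshold (0.77, adjusted p = 0.0658 in limma).

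Outside the regulon, HSP26 stood at 20.8 and 19.2 RPM in pho4Δ (2.56, adjusted p = 4.3e-06 in limma) and GRE1 at 2.73 and 2.60 RPM (2.42, adjusted p = 3.3e-05 in limma). These levels were close to those of BY4741. HSP82, an Hsp90 gene, stood at 633 and 565 RPM in pho84Δ and at 390 and 386 RPM in pho4Δ, and was higher by 0.62 (adjusted p = 0.0116 in limma), while BY4741 with 621 and 586 RPM overlapped pho84Δ. QCR6, the gene next to PHO4 on chromosome VI, stood at 132 and 135 RPM in pho84Δ and at 68.8 and 60.1 RPM in pho4Δ (1.04, adjusted p = 0.000199 in limma). COS7 and COS5, members of a subtelomeric family with near-identical copies, differed in opposite directions (2.61 and -0.83), and their reads are uncertain for that reason.

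The Tpho84-Tcyc1 strain also had little PHO84 RNA, with 0.807, 1.42 and 1.23 RPM against 157, 135 and 76.2 RPM in its BY4741 controls. The effects of pho84Δ and Tpho84-Tcyc1, each against the BY4741 libraries of its own series, were compared in a limma fit of all 21 libraries. The difference of effects was called for 223 of 5927 features (3.76%), 151 with a higher effect in pho84Δ and 72 with a lower. Leaving out single libraries moved this count to between 70 and 266. It was 70 without pho84Δ library 2, 74 without pho84Δ library 1, 106 and 121 without BY4741 libraries 2 and 3, 112 without Tpho84-Tcyc1 library 3, and 148 without BY4741 library 5. The number of regulon members called was 7 in each of those fits.

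PHO5 was not called in Tpho84-Tcyc1. It measured 14.6, 16.4 and 16.9 RPM there against 17.1, 17.9 and 15.9 RPM in BY4741, an effect of -0.08 (adjusted p = 0.746 in limma), and the difference of effects was 4.36 (SE 0.23, adjusted p = 1.38e-10 in limma). PHO89 had effects of opposite sign in pho84Δ and Tpho84-Tcyc1. It fell in Tpho84-Tcyc1, from 1.90, 3.22 and 1.89 RPM to 0.767, 0.841 and 0.745 RPM (-0.88, adjusted p = 0.015 in limma), and the difference of effects was 4.97 (SE 0.37, adjusted p = 5.91e-08 in limma). PHM6 fell there too, from 6.65, 7.39 and 4.72 RPM to 2.20, 2.42 and 2.94 RPM (-1.03, adjusted p = 0.000529 in limma), with a difference of effects of 2.90. The PHO89 levels in Tpho84-Tcyc1 were under 1 RPM and just below the 1.03 and 0.933 RPM of BY4741 in the second series. The part of the series in the fall of PHO89 was not tested.

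SPL2 fell strongly in Tpho84-Tcyc1, from 13.8, 10.9 and 4.66 RPM to 0.969, 0.999 and 0.789 RPM (-2.38, adjusted p = 3.32e-06 in limma), whereas in pho84Δ it was not called. The difference of its effects was 2.07 (SE 0.40, adjusted p = 0.00651 in limma). PHO12 also fell there (-1.12, adjusted p = 0.00508 in limma), with a difference of 1.93 (adjusted p = 0.0093 in limma). For GIT1 and PHO11 the effects in Tpho84-Tcyc1 were -0.08 and -0.04 and did not pass, and the differences of effects were 2.39 and 1.51 (adjusted p = 3.76e-06 and 0.00408 in limma). VTC3 fell in Tpho84-Tcyc1 (-0.71, adjusted p = 0.00339 in limma), but its difference of effects was not called (0.43, adjusted p = 0.372 in limma).

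**Figure D5:**
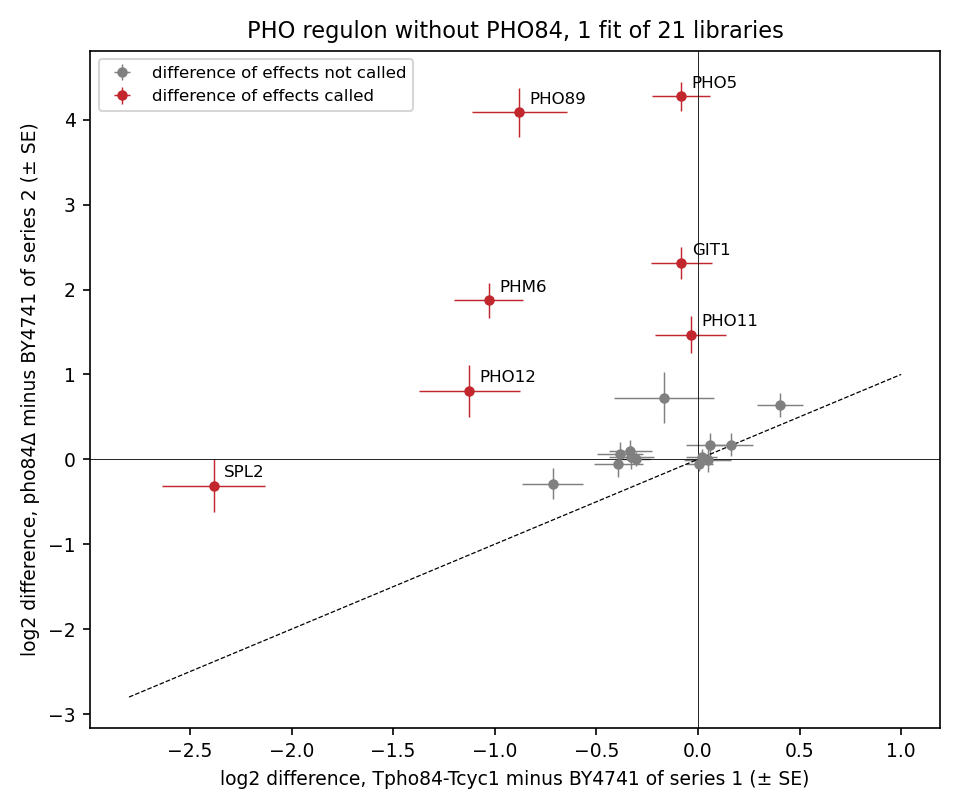
Log2 difference from BY4741 of the same series for 20 PHO regulon genes without PHO84, in pho84Δ (vertical) and in Tpho84-Tcyc1 (horizontal), with standard errors from a limma fit of 21 libraries; the dashed line marks equal effects. The 7 genes whose effects differed, in red, lie above the line, with PHO5 and PHO89 highest and SPL2 farthest to the left.

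Beyond the regulon, HSP26 rose in both strains, by 0.82 in Tpho84-Tcyc1 (adjusted p = 0.00115 in limma), and the rise was larger in pho84Δ by 1.58 (SE 0.24, adjusted p = 0.000445 in limma). BDH2 also rose in both, by 1.23 in Tpho84-Tcyc1 (adjusted p = 0.000461 in limma), and its difference of effects of 0.29 was not called (SE 0.32, adjusted p = 0.689 in limma). HSP82 rose in Tpho84-Tcyc1, from 449, 392 and 335 RPM to 719, 826 and 701 RPM (0.94, adjusted p = 7.24e-05 in limma), and not in pho84Δ, with a difference of effects of -0.95 (adjusted p = 0.0126 in limma). GSY1, a glycogen synthase gene, rose in Tpho84-Tcyc1 (0.97, adjusted p = 0.000567 in limma) and stood at 36.6 and 34.0 RPM in pho84Δ against 55.3 and 46.3 RPM in its BY4741 without a call in limma, with a difference of -1.48 (adjusted p = 0.00233 in limma). Several of the other large differences belong to genes that were high in BY4741 of the first series. RGS2, a regulator of G protein signalling, stood at 25.3, 37.6 and 51.4 RPM in those BY4741 libraries and at 6.85 and 6.03 RPM in BY4741 of the second series (difference of effects 2.03, adjusted p = 0.000445 in limma). Strain and series are tied together in this comparison apart from BY4741, so the part of the series in such differences was not tested.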

How the data were processed

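RNA from 21 cultures was made into libraries with a stranded kit on purified mRNA, per the labels' protocols. The authors deposited 1 table of RPM, reads per Mread (megaread); the submitters' processing notes name HISAT2, featureCounts and edgeR, and versions, genome build, annotation and strand setting are not given in the sources used here, so sense and antisense reads cannot be told apart. Of 7127 lines, 4 held no values and were not used here. Dividing by the RPM of 1 read gave whole reads within 0.01 for 100% of values. Fits with edgeR 4.0.16 (14 genes called) and DESeq2 1.42.0 (40 called) on these reads are alternatives. The main test was limma 3.58.1 (R 4.3.3) on log2(RPM + 1), with variances that follow the mean, for features with at least 1 RPM in at least 2 libraries, after a check on simulated data. The floor of 3 reads covers counting error only. The SDs are those between the 2 libraries of a group, and the limma SEs rest on the variation between libraries within groups. Exact permutation tests were not used, since 2 against 2 libraries cannot give a two-sided p below 0.333. Identifiers were matched to RefSeq build R64 (6044 found), whose names were used; 5 symbols stood elsewhere in the table. Coding lengths are the summed coding pieces in R64, or the gene's length where it encodes no protein. Promoters are the 500 bases before the start codon in R64. Figures used matplotlib 3.10.9.

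Replicates were not counted as duplicates: the chi-square of reads per degree of freedom was 5.77 for pho84Δ and 18.8 for BY4741 4 and 5.

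The comparison, gene lists and tests were chosen with earlier results of these data known. Genes were named by rule: PHO84, SPL2, UME6, PHO4 and KCS1; tested PHO regulon members; the 12 largest called rises and falls with mean log2 of at least 3 and separate groups; up to 4 called members per list; genes beside PHO84; marker genes; and the 8 largest each way in the other comparisons. Other genes were named after their values were seen: LEE1, SPS100, YCL048W-A, TKL2, TDH1, DDR2, CTT1, TPS1, HSP104, RPL41B, RPL43A, MIR1, PMA1, ZRT1, SMF1, QCR6, CYT1, MEP2, SIP18, YIR042C, COX17, TSC3, PHO87, PHO90 and PHO91.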

Additional observations from a re-analysis of the deposited data

Results flagged for a closer look

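Among the genes chosen by the naming rules or named after their values were seen, 30 had effects in pho84Δ and in Tpho84-Tcyc1, each against BY4741 of its own series, that differed by a tested difference of effects (limma, adjusted p under 0.05). Over all features the difference was called for 223 of 5927 (3.76%). Up to 8 genes each way were named because they were the largest in this same comparison. The count of 30 is therefore partly set by the choice of genes, and nothing is read from it. In the PHO regulon the effect in pho84Δ was higher by 4.97 for PHO89, 4.36 for PHO5, 2.90 for PHM6, 2.39 for GIT1, 2.07 for SPL2, 1.93 for PHO12 and 1.51 for PHO11 on the log2 scale. Outside it the effect was higher by 4.06 for the Ty3 feature YGR109W-B and by 2.52 for YGR035C, 2.25 for SCR1, 2.22 for MNC1, 2.14 for HPF1, 2.14 for GRE1, 2.03 for RGS2 and 1.95 for STP4. It was higher by 1.65 for HXT5, 1.58 for HSP26, 1.52 for SPS100, 1.501 for YCL048W-A, 1.34 for LEE1, 1.08 for PDC6 and 0.49 for PHO90. The effect in pho84Δ was lower for 8 genes, with differences of -1.48 for GSY1, -1.10 for HXK1, -1.09 for RGI1, -1.001 for TSL1, -0.997 for PGM2, -0.95 for HSP82, -0.94 for HSP42 and -0.91 for YBR184W. A difference of effects can come from either strain, so a higher value is not by itself a rise in pho84Δ. Of the genes with a higher effect, YGR035C, SCR1, MNC1, RGS2, STP4, SPL2, PHO12 and PHO90 were not called against BY4741 of the second series. The 8 genes with a lower effect were not called there either. The strains come from different series, and the part of the series in these differences was not tested.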

How the results depend on the processing

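The count for pho84Δ against BY4741 (17) was 40 with DESeq2 (29 higher, 11 lower), 11 with only the 4 libraries in the fit, 2345 with BY4741 of series 1 as the control, a comparison across series, and 28 with all 5 BY4741 libraries; without single libraries it ran from 11 to 171, the latter without BY4741 library 4. The count against pho4Δ (29) was 63 with DESeq2, 60 with only the 4 libraries, 34 with a replicate block and 18 to 27 without single libraries; same-numbered pho4Δ and pho84Δ libraries deviated in opposite directions (correlation -0.19), and a replicate block with the pho84Δ numbers crossed, chosen after seeing the data, gave 55. Correlations with the other groups ran from -0.15 to 0.16. In a group of 2 libraries the deviations mirror each other, so these values cannot settle whether shared numbers pair the samples. No paired analysis was possible against BY4741 because its numbers are 4 and 5. The count for the difference of effects (223) was 446 with DESeq2 and 70 to 266 without single libraries. With BY4741 of series 1 as the control, VTC1 (-0.39), PPN1 (0.24) and PHO86 (-0.42) turned direction and were called; the cause of these shifts was not tested. PHO84, PHO5, PHO89, GIT1, PHM6, HSP26, GRE1, BDH2 and YGR109W-B were called in all 14 alternatives run. The check on simulated data changed 100 genes by a log2 difference of 1 and 100 by 2, recovered 100% of each and made 10 false calls. The changed genes were drawn only from those above a minimum mean level, and the reads of each gene were drawn on their own. Recovery of low genes such as PDC6 and LEE1, and deviations shared by the genes of a library, were therefore not checked. With 2 libraries a group, changes of the simulated sizes may still be missed in the real libraries, where TDH1 (1.44) did not pass in limma.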
